A study of Rattus norvegicus with 48 samples.

Results

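The cyclins and mitosis genes described here are 39 genes that drive or carry out cell division: the cyclins of the G1, S and M phases, cyclin-dependent kinase 1 and the small proteins that bind it, the mitotic kinases, the spindle checkpoint, the spindle motors, the cytokinesis proteins, and Mki67 and Top2a, which are used as markers of dividing cells. They were chosen by gene symbol, with no threshold on their signals. Of the 39, 36 had at least 1 probeset annotated to that gene alone, with 55 probesets among the 31099 in the table, and 35 genes were read after a filter on low signals, among 10133 genes read in all. Bub1b was listed on 2 arrays and did not pass the filter. Anln had 1 probeset, which it shared with Anlnl1, and Nek2 and Tpx2 had none.

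The livers came from male Fischer (F344) rats that were 9 weeks old when dosing began. The sodium salt of phenobarbital (PB), a drug that makes the rat liver grow and induces its drug-metabolizing enzymes, was mixed into the standard laboratory diet at 0, 50, 500 or 1000 ppm and fed freely for 1, 3, 7 or 14 days. Of the doses, 1000 ppm was set as one that causes liver tumors and 50 and 500 ppm as ones that do not. The 0 ppm rats killed on the same day are the time-matched controls, and all groups were of the same strain and sex. Of the 5 animals killed per dose and day, 3 were put on arrays, which gave 16 groups of 3 and 48 arrays with 1 animal each. The RNA was total RNA from a piece of the left lateral lobe, so a signal sums over all cells of that piece, and fewer cells of a kind cannot be told apart from less RNA per cell. All 9 hepatocyte markers were listed on all 48 arrays.

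A cell enters the cycle when D-type and then E-type cyclins switch on the kinases that start DNA replication, and it enters mitosis when CDK1 is activated by cyclins A and B. Mitotic kinases such as Aurora A and Polo-like kinase 1 then build the spindle, the anaphase-promoting complex (APC/C) destroys the cyclins, and RhoA signaling closes the cleavage furrow. Most hepatocytes of an adult rat rest outside the cycle, and the RNAs of late-cycle genes are made mainly in cells in S, G2 and M phase. PB acts in rodent liver through the receptor CAR and is known as a liver mitogen whose effect on DNA synthesis fades while dosing goes on.

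Many late-cycle genes share 2 short promoter elements that the DREAM and MuvB complexes and the factor NF-Y bind, the cell cycle genes homology region (CHR, TTTGAA) and the CCAAT box. Both were looked for on both strands in the RefSeq promoter windows of the build GRCr8, which run from 250 bases before to 50 bases after each start. Of the 39 genes, 31 had a window, 33 windows in all. TTTGAA was found in 22 of the 33 (66.7%) against 18.3% of all 33469 windows, and CCAAT in 24 (72.7%) against 37.5%. Both elements together were in 19 (57.6%) against 7.41%, and TTTNNCGC, a core of the E2F element, was in 4 (12.1%) against 4.92%. In Mki67 a TTTGAA and a CCAAT on the other strand overlap, and no other motif pair overlaps in the stretches printed. The 200 bases before the start are shown for 6 genes whose signals carry the results, 4 with a CHR and 2 without. They are written 5′ to 3′ on the gene's strand, and capitals mark the 3 motifs on either strand.
Top2a: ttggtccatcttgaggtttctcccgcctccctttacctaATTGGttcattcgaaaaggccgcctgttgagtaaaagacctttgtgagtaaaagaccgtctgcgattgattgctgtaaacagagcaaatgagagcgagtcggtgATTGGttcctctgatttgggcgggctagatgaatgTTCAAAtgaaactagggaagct
Mki67: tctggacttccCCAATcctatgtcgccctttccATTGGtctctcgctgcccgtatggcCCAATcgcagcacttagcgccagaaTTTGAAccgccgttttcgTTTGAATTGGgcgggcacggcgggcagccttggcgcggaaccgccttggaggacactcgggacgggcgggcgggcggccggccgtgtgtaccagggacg
Ect2: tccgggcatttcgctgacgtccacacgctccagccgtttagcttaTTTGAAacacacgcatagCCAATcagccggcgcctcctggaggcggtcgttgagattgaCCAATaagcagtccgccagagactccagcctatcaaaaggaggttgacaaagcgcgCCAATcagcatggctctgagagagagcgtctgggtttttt
Cks2: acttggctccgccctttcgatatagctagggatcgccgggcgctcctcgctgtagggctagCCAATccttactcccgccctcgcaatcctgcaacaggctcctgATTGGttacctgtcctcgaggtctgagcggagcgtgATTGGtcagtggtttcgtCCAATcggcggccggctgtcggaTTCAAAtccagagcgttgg
Stmn1: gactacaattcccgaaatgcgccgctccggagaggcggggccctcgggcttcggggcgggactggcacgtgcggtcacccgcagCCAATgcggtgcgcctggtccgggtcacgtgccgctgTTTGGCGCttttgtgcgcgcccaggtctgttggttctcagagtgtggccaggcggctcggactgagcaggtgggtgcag
Kif11: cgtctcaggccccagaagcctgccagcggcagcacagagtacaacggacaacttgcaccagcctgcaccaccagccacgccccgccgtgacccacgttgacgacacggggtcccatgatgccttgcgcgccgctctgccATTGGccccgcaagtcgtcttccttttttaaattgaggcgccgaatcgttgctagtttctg
The stretches lie at chr10:84473094-84473293 for Top2a, chr1:199952594-199952793 for Mki67, chr2:111966627-111966826 for Ect2 and chr17:13727520-13727719 for Cks2, all on the minus strand, and at chr5:151964979-151965178 for Stmn1 and chr1:244536667-244536866 for Kif11, both on the plus strand. Top2a and Cks2 held the CHR close to the start, at -22 and -19, Mki67 held it at -117 and -99, and Ect2 at -155. The Stmn1 and Kif11 stretches had a CCAAT box at -116 and -61 and no TTTGAA, and Stmn1 had the E2F core at -79. A match describes the letters of a window, not a bound site.

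Many of these genes were absent on part of the arrays. A probeset has no value on an array where its signal was absent, and such signals were left missing. The arrays listed 13479 to 16352 probesets. Of the 36 genes with a probeset, 21, 25 and 30 were listed in the day 1 controls. On day 1 this was 27, 33 and 33 at 50 ppm, 30, 32 and 33 at 500 ppm and 32, 34 and 35 at 1000 ppm. On day 3 the lowest, median and highest array listed 23, 28 and 31 in the controls and 22, 25 and 30 at 50 ppm. They listed 32, 33 and 34 at 500 ppm and 29, 32 and 33 at 1000 ppm. So on both early days most treated livers at the higher doses had more of the genes listed than their controls. The edges met or overlapped on day 1 at 500 ppm and on day 3 at 1000 ppm. At 50 ppm the median was above that of the controls on day 1, as at the higher doses, and below it on day 3. Over all probesets the listing moved with this in part: on day 3 the arrays listed 15628 to 16352 at 500 ppm and 15254 to 15627 in the controls, but 14856 to 15239 at 1000 ppm, and on day 1 15135 to 15628 at 1000 ppm and 14068 to 15634 in the controls. By day 14 the counts were 13, 20 and 32 in the controls, 9, 11 and 15 at 50 ppm, 11, 15 and 15 at 500 ppm, and 11, 13 and 13 at 1000 ppm. Of all probesets, the day 14 controls listed 15226 to 16101 and the livers at 1000 ppm 13767 to 14538. The part of the overall listing in these counts was not tested. Ccnd1, Cks1b, Cks2, Kif11 and Stmn1 were the 5 genes with a probeset listed on all 48 arrays.

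**Figure D1:**
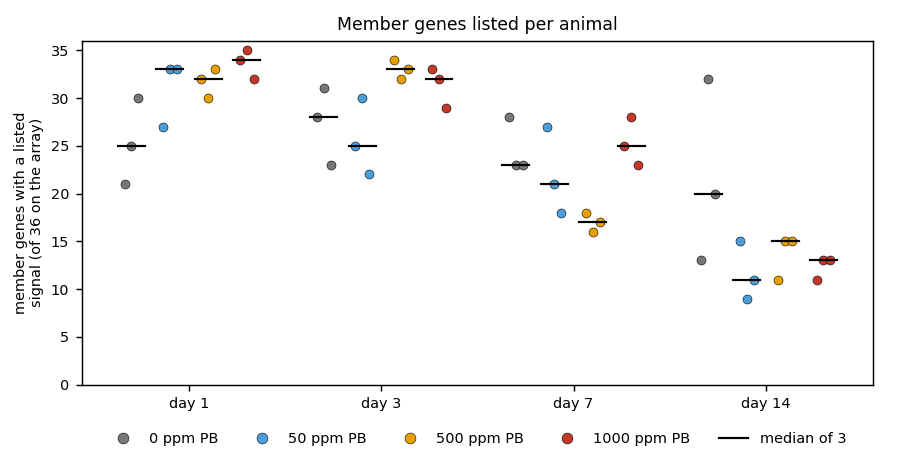
Number of the 36 cyclin and mitosis genes with at least 1 listed probeset on each array (y axis), by day and dose of PB (x axis), 1 point per animal. On day 1 the 1000 ppm livers had 32 to 35 genes listed and the controls 21 to 30, while on day 14 at 1000 ppm 11 to 13 were listed.

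In some groups 1 animal was highest or lowest of the 3 in most of the genes. Animals are named here by their replicate number within the group. On day 1, control replicate 1 had the lowest signal of its group in 16 of the 16 genes listed on all 3 controls, against 34.2% of all probesets, and at 1000 ppm replicate 2 had the highest in 28 of 29, against 33.4%. On day 3, control replicate 3 was lowest in 13 of 17, against 34.2%, and 1000 ppm replicate 3 was lowest in 22 of 27, against 37.8%. On day 14, control replicate 2 was highest in 8 of 10, against 30.1%, and its 32 listed genes stood above the 13 and 20 of the other controls. On day 1, 50 ppm replicate 1 was lowest in 22 of 23, against 31.9%, and 1000 ppm replicate 1 in 24 of 29, against 36.5%. At 500 ppm on day 1 replicate 3 was highest in 22 of 25, against 32.2%. At 50 ppm on day 3 replicate 2 was highest in 16 of 18, against 32.4%. At 500 ppm on day 7 replicate 3 was highest in 10 of 11, against 32.7%. Some groups were more even. At 1000 ppm on day 7 the 3 livers were highest in 5, 5 and 6 of 16 genes. In the day 7 controls they were highest in 9, 5 and 4 of 18, and at 500 ppm on day 3 in 12, 14 and 5 of 31. The arrays carry 6 label prefixes, here called runs, and the sources used here do not say what a prefix marks. Runs and groups overlap in part: on day 1 control replicate 1 was of run 6 and the other controls of run 1, and all 3 arrays at 1000 ppm on day 14 were of run 1. The array most often lowest on day 1 at 0, 50 and 500 ppm was of run 6 each time. The counts of genes called by limma were therefore also made with the run as a block: where no such count is given below for a comparison with 0 calls, it was 0 as well. For 7 arrays the title and the animal number in the labels give different groups. They were placed by the animal number, and the counts of genes called are given also with the placing by title and without these arrays.

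At 1000 ppm, the mean of days 1 and 3 was above the controls for all 22 genes that could be tested, while 13 of the 35 were listed too seldom for a test on the probeset read. Of these 13, 4 could be tested on another probeset (Mad2l1, Cdc20, Nusap1 and Hmmr). A gene was tested where every group of the comparison had at least 2 listed signals, with limma on log2 signals and the Benjamini-Hochberg adjustment made over all probesets tested. The p-values measure the spread between animals, each on 1 array. At an adjusted p under 0.05, 6 of 22 genes rose: Stmn1, Ccna2, Mki67, Top2a, Kif11 and Aurka. Among all probesets tested, 3.83% rose in the same comparison. The median difference of the 22 genes was 0.81 on the log2 scale, where the median over all probesets tested was -0.02, and 18 of 22 had an unadjusted p under 0.05. With the run as a block 1 gene was called, Stmn1, and the median over the genes was 0.85. Leaving out 1 array gave 2 to 12 calls: 2 without control replicate 1 of day 1 or without 1000 ppm replicate 2 of day 1, and 12 without 1000 ppm replicate 1 of day 1. Without control replicate 3 or 1000 ppm replicate 2 of day 3, 3 genes were called. Placing the 7 arrays by title gave 5 calls, and leaving them out gave 4.

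At 500 ppm all 22 genes tested were above the controls over days 1 and 3, with a median of 0.63, and Ccna2, Mki67, Aurka and Kif11 were called higher, 4 of 22 against 2.55% of all probesets. With the run as a block Kif11 alone was called, and the median was 0.88. None of the 4 was called without control replicate 1 of day 1, control replicate 3 of day 3, 500 ppm replicate 3 of day 1, or 500 ppm replicate 1 or 3 of day 3, and 0 were called with the 7 arrays placed by title or left out. At 50 ppm 0 of 18 genes were called by limma, against 0.0457% of all probesets in either direction, 1 had an unadjusted p under 0.05, and the median was 0.34 with 18 of 18 above 0 (0 called with the run block). Between 1000 and 500 ppm, which were compared with each other directly, 0 of 27 genes differed by limma, with a median difference of 0.14, 2 unadjusted p-values under 0.05, and 0% of all probesets called. That comparison gave 0 calls with the run block as well, and a p that misses the threshold does not show that the doses acted alike. The treated groups share their controls.

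Where an absent or lower signal was set to 90, the filter's limit, all 35 genes could be tested. For 6 of them (Ccne1, Ccne2, Plk1, Mad2l1, Kif2c and Kif23) no early control had a signal above 90 on the probeset read, so their difference could not fall below 0 and their direction carries no information. This setting called 10 genes at 500 ppm and 19 at 1000 ppm, against 2.1% and 3.23% of all probesets higher. Of the 10, 2 were of the 6 with no early control above 90, Ccne2 and Kif2c. Of the 19, 11 were among the 22 genes tested without it and 8 were not, and 3 of those 8, Ccne2, Mad2l1 and Kif2c, were of the 6 with no early control above 90. For 3 genes another probeset passed the test at 1000 ppm where the one read did not, and these were picked after their values were seen: Nusap1, which bundles spindle microtubules (1.17, adjusted p = 0.00132), Ccnb1, which encodes cyclin B1 (1.04, 0.0188), and Hmmr, which encodes a hyaluronan receptor that also sits on the spindle (0.87, 0.0417). Nusap1 was called on that probeset also at 500 ppm (0.91, adjusted p = 0.0224) and on day 1 at 1000 ppm (1.47, adjusted p = 0.0122). Plk1, which encodes Polo-like kinase 1, was listed on 8 arrays, all of treated animals on day 1 or 3, and was not tested.

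On single days fewer genes passed. On day 3 at 500 ppm 25 of 25 genes lay above the controls (median 0.77) and Stmn1 was called, 1 of 25 against 0.865% of all probesets. In 13 of the 17 genes listed on all 6 of these arrays every treated liver was above every control, against 10.7% of probesets. On day 3 at 1000 ppm that held for 9 of 17 genes, against 11.8%, and Stmn1 was called, 1 of 25 against 2.19%. On day 1 at 1000 ppm 23 of 23 genes were above the controls (median 0.86), 5 of 16 did not overlap, against 9.89%, and Stmn1 was called, 1 of 23 against 1.69%. On day 1 at 500 ppm 2 of 16 did not overlap, Melk and Top2a, against 9.47%. There 0 of 23 were called by limma, with 5 unadjusted p-values under 0.05, 0.842% of probesets called in either direction, and a median of 0.49. Setting low signals to 90 gave 3 calls there, of 35 genes, against 0.603% of probesets higher. These were Bub1, Ccne1 and Ccne2, and the last 2 had no early control above 90, so they could not fall. The days were not compared with each other at a dose by a test. With the 7 arrays placed by title none of the 3 single-day calls was made, and without them that at 500 ppm on day 3 was not. At 50 ppm 0 of 23 genes on day 1 and 0 of 19 on day 3 were called by limma, with 3 and 0 unadjusted p-values under 0.05, where 0.0142% and 0.102% of probesets were called. Non-overlapping higher values were seen at 50 ppm for 1 of 16 genes on day 1 (Melk) and 4 of 16 on day 3 (Ccnd1, Cks1b, Aurkb and Stmn1), against 7.01% and 9.16% of probesets.

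Among the G1 and S phase cyclins, Ccnd1, which encodes cyclin D1, was the 1 gene that could be tested over days 1 and 3 (probeset 1371643_at). Ccnd1 signals on day 1 were 1030.4, 1291 and 1429.6 in the controls, 1070.3, 1235 and 1245 at 50 ppm, 1463, 1396 and 1556 at 500 ppm and 1166, 1850.3 and 1841 at 1000 ppm. Ccnd1 signals on day 3 were 953, 924 and 941 in the controls, 958, 968 and 1209.5 at 50 ppm, 893, 929 and 1439 at 500 ppm and 847, 987 and 883 at 1000 ppm. At 500 ppm all 3 treated livers of day 1 were above all 3 controls save for a control at 1429.6 that exceeded the treated value of 1396, and on day 3 the 50 ppm livers were above all controls while the other doses overlapped with them. Ccnd1 signals on day 7 were 1359, 992 and 1297 in the controls, 1159, 871 and 887 at 50 ppm, 939.9, 959 and 1073 at 500 ppm and 582 and 1081 (2 of 3 listed) at 1000 ppm. Ccnd1 signals on day 14 were 937, 1231 and 1285 in the controls, 713, 838 and 975 at 50 ppm, 886, 858 and 561 at 500 ppm and 1088 and 1043 (2 of 3 listed) at 1000 ppm. The day 14 values at 500 ppm were below all controls. No dose comparison of this probeset passed the test, with 0.15 ± 0.15 (SE) over days 1 and 3 at 1000 ppm (adjusted p = 0.634). Its other probesets did not give the same answer on day 1 at 1000 ppm: 1 was called higher (0.76, adjusted p = 0.0216) and 1 was not (0.80, adjusted p = 0.14), and the former was called lower at 50 ppm on day 7 (-0.77, adjusted p = 0.0128). Ccne1 could be tested only with low signals set to 90, and under that setting Ccne2, the other E-type cyclin, was called higher at 1000 ppm, where no early control had a signal above 90.

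Of the CDK1 core, 7 genes were tested at 1000 ppm over days 1 and 3, with a median of 0.85, and Ccna2 was called while all 7 had an unadjusted p under 0.05. Ccna2 encodes cyclin A2, which acts in S phase and at the entry into mitosis (probeset 1379582_a_at). Ccna2 signals on day 1 were 154, 305 and 484 in the controls, 271, 486 and 567 at 50 ppm, 425, 530.3 and 668 at 500 ppm and 494, 1103 and 517 at 1000 ppm. Ccna2 signals on day 3 were 247, 338 and 112 in the controls, 223, 353 and 305 at 50 ppm, 813, 523 and 555 at 500 ppm and 457, 634 and 287 at 1000 ppm. All treated livers at 500 and 1000 ppm lay above the mean of their controls, and at 500 ppm on day 3 and 1000 ppm on day 1 no treated value reached down to a control. The early difference was 1.23 ± 0.34 (SE) on the log2 scale (adjusted p = 0.0326) at 500 ppm and 1.13 ± 0.34 (SE) on the log2 scale (adjusted p = 0.037) at 1000 ppm, or 2.35-fold and 2.19-fold. With the run as a block the adjusted p-values were 0.141 and 0.206, and the call at 500 ppm was lost in 6 of 12 fits that left out 1 array. Ccna2 signals on day 7 were 291, 196 and 196 in the controls, 154, 86.9 and 87.01 at 50 ppm, 72.5, 92.3 and 152 at 500 ppm and 137, 72.02 and 108 at 1000 ppm. Ccna2 signals on day 14 were 341 and 66.4 (2 of 3 listed) in the controls, 43.9 and 64.7 (2 of 3 listed) at 50 ppm, 23.9 and 27.3 (2 of 3 listed) at 500 ppm and 45.99 (1 of 3 listed) at 1000 ppm. From day 7 the order was turned: at 50, 500 and 1000 ppm every day 7 value was below every control. On day 14 at 500 ppm Ccna2 was called lower, -2.56 ± 0.58 (SE, adjusted p = 0.0167, 0.597 with the run block), from 2 listed signals against 2, with 1 absent signal dropped in each group. It was 1 of 10 genes tested, against 0.521% of probesets lower, and it could not be tested with 3 listed signals required or without any 1 of those 4 arrays. Of the 4 signals all but the control at 341 were under the limit of 90, and the call was not made with low signals set to 90 or with the arrays placed by title. The listed treated values of day 14 were all below both listed controls.

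Cks2, a small subunit that binds cyclin-dependent kinases, was listed on all 48 arrays (probeset 1373823_at). Cks2 signals on day 1 were 967, 1049 and 1063 in the controls, 933, 1082 and 1231 at 50 ppm, 1505, 951 and 1445 at 500 ppm and 1067, 1705 and 1220.2 at 1000 ppm. Cks2 signals on day 3 were 862, 1073 and 945 in the controls, 849, 1234 and 1015 at 50 ppm, 1234, 1366 and 1074 at 500 ppm and 1229.8, 1444 and 888 at 1000 ppm. The highest values were those of treated livers on both days, with overlap at 1000 ppm on day 3 and at 500 ppm on day 1. Cks2 signals on day 7 were 817, 926 and 803 in the controls, 758, 741 and 662 at 50 ppm, 583, 596 and 965 at 500 ppm and 609, 758 and 760.1 at 1000 ppm. Cks2 signals on day 14 were 519, 848 and 611 in the controls, 639, 589.5 and 708 at 50 ppm, 575, 620.04 and 715 at 500 ppm and 518, 603 and 740.1 at 1000 ppm. Day 14 values were below the day 1 mean of the same dose in 12 of 12 livers. On day 7 the livers at 50 and 1000 ppm were below all controls. Cks2 was not called at any dose against controls, but fell between day 1 and day 14. The other core genes tested at 1000 ppm were not called. Cdk1, which encodes the kinase itself, differed by 0.85 ± 0.39 (SE, adjusted p = 0.209), Ccnb1 by 0.88 ± 0.31 (adjusted p = 0.0947) and Ccnb2, which encodes cyclin B2, by 0.81 ± 0.27 (adjusted p = 0.0654). These 3 were picked after their values were seen.

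Among the mitotic kinases 4 were tested at 1000 ppm over days 1 and 3, with a median of 0.81, and 1 was called. This was Aurka, which encodes Aurora A, the kinase of the spindle poles (probeset 1376039_at). Aurka signals on day 1 were 113, 207 and 266 in the controls, 212, 275 and 300.1 at 50 ppm, 311, 219 and 394 at 500 ppm and 246, 424 and 296 at 1000 ppm. Aurka signals on day 3 were 199.97, 192 and 173 in the controls, 178, 287 and 205 at 50 ppm, 319, 329 and 320.4 at 500 ppm and 417, 408 and 237 at 1000 ppm. On day 3 all 6 treated livers at 500 and 1000 ppm were above all 3 controls, while on day 1 the groups overlapped. The early difference was 0.74 ± 0.21 (SE) on the log2 scale (adjusted p = 0.0464) at 500 ppm and 0.82 ± 0.21 (SE) on the log2 scale (adjusted p = 0.0157) at 1000 ppm. With the run block the adjusted p-values were 0.131 and 0.472. The call at 500 ppm was lost in 10 of 12 fits that left out 1 array, with an adjusted p of up to 0.125. The call at 1000 ppm was lost without control replicate 1 of day 1, 0.64 (adjusted p = 0.0598), and without 1000 ppm replicate 2 of day 1, 0.71 (adjusted p = 0.0587). Aurka signals on day 7 were 191 and 98.6 (2 of 3 listed) in the controls, 129.98, 93.6 and 114 at 50 ppm, 0 of 3 listed at 500 ppm and 132, 95.2 and 151 at 1000 ppm. Aurka signals on day 14 were 179 and 125 (2 of 3 listed) in the controls, 0 of 3 listed at 50 ppm, 0 of 3 listed at 500 ppm and 0 of 3 listed at 1000 ppm. Aurora A RNA was listed in no liver at 500 ppm from day 7 and in no treated liver on day 14, where 2 of 3 controls listed it. Of the other kinases, Bub1, which works in the spindle checkpoint, differed by 0.93 ± 0.30 at 1000 ppm (SE, adjusted p = 0.0601, 0.417 with the run block) and Melk by 0.80 ± 0.25 (0.0589, 0.342 with the run block), both picked after their values were seen.

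Of the 6 spindle checkpoint and APC/C genes, 0 of the 2 tested at 1000 ppm over days 1 and 3 were called by limma, 2 of 2 above 0. Ube2c, the ubiquitin-conjugating enzyme that works with the APC/C, was listed on most arrays (probeset 1388484_at). Ube2c signals on day 1 were 212, 561 and 554 in the controls, 320.2, 725 and 632 at 50 ppm, 464, 580.05 and 768 at 500 ppm and 535, 1337 and 714 at 1000 ppm. Ube2c signals on day 3 were 413, 513 and 274 in the controls, 476, 486 and 337 at 50 ppm, 682, 794 and 635 at 500 ppm and 641, 758 and 424 at 1000 ppm. Day 3 values at 500 ppm were above all controls, and at 1000 ppm 2 of 3 were. Its early difference at 1000 ppm was 0.80 ± 0.28 (SE, adjusted p = 0.0784, 0.236 with the run block). Ube2c signals on day 7 were 371, 329 and 244 in the controls, 367, 189.8 and 194 at 50 ppm, 123, 153 and 259 at 500 ppm and 185, 294 and 215 at 1000 ppm. Ube2c signals on day 14 were 126, 335 and 145 in the controls, 124, 128 and 84.7 at 50 ppm, 131, 85.1 and 109 at 500 ppm and 238 (1 of 3 listed) at 1000 ppm. At 500 ppm all 6 livers of days 7 and 14 were below the mean of their controls, with overlap on both days. Mad2l1 and Cdc20, which hold back and activate the APC/C, could not be tested on the probesets read. On other probesets Cdc20 differed at 1000 ppm over days 1 and 3 by 0.68 ± 0.24 (SE, adjusted p = 0.091) and Mad2l1 by 0.73 ± 0.25 (SE, adjusted p = 0.0764) on 1 and 0.38 ± 0.26 (SE, adjusted p = 0.468) on another, and none of these was called.

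Of the spindle genes 2 could be tested at 1000 ppm over days 1 and 3 on the probeset read, Stmn1 and Kif11, and both were called, as were Nusap1 and Hmmr on their other probesets, given above. Stmn1 encodes stathmin, which destabilizes microtubules until it is phosphorylated in mitosis (probeset 1386857_at). Stmn1 signals on day 1 were 789.98, 1459.9 and 1993 in the controls, 1197, 1680.2 and 2135 at 50 ppm, 1225, 1334 and 2066 at 500 ppm and 2089, 3949 and 3178 at 1000 ppm. Stmn1 signals on day 3 were 1128, 1155 and 795 in the controls, 1191, 1553 and 1246 at 50 ppm, 1838, 2267 and 2255 at 500 ppm and 2477, 2361 and 1368 at 1000 ppm. All 6 livers at 1000 ppm were above all controls of their day, and so were all those at 50 and 500 ppm on day 3, while at 50 and 500 ppm on day 1 the values overlapped with the controls. The early difference at 1000 ppm was 1.08 ± 0.20 (SE) or 2.11-fold, with an adjusted p of 0.000302 (0.0496 with the run block), and it was called in all 12 fits that left out 1 array. It was called also at 1000 ppm on day 1, 1.17 ± 0.28 (SE) on the log2 scale (adjusted p = 0.0174), at 1000 ppm on day 3, 0.98 ± 0.28 (SE) on the log2 scale (adjusted p = 0.035), and at 500 ppm on day 3, 1.06 ± 0.28 (SE) on the log2 scale (adjusted p = 0.0479). Those 3 single-day calls had adjusted p-values of 0.709, 0.0353 and 0.587 with the run block, and 3 of 6, 5 of 6 and 6 of 6 of the fits without 1 array lost them. On day 1 the call at 1000 ppm was lost without control replicate 1 or 1000 ppm replicate 2 or 3, and on day 3 it was kept without 1000 ppm replicate 3 alone. The lowest differences were 0.80 on day 1 without that control, and on day 3 without control replicate 3 they were 0.81 at 1000 ppm and 0.89 at 500 ppm. Stmn1 signals on day 7 were 1392, 1011 and 1013 in the controls, 1095, 759 and 1197 at 50 ppm, 786, 854 and 984 at 500 ppm and 1067, 962 and 1118 at 1000 ppm. Stmn1 signals on day 14 were 565, 1097 and 856 in the controls, 582, 819.5 and 549 at 50 ppm, 694, 776 and 804 at 500 ppm and 956, 845 and 974 at 1000 ppm. The day 7 livers at 500 ppm were below all controls, and on day 14 all groups overlapped.

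Kif11, the motor that pushes the spindle poles apart, was also listed on all 48 arrays (probeset 1390891_at). Kif11 signals on day 1 were 110.1, 281 and 247 in the controls, 219, 279 and 332 at 50 ppm, 281, 273 and 341 at 500 ppm and 274, 481 and 408 at 1000 ppm. Kif11 signals on day 3 were 208, 204 and 143 in the controls, 269, 269.9 and 168 at 50 ppm, 313, 363 and 312 at 500 ppm and 314, 334 and 254 at 1000 ppm. On day 3 all livers at 500 and 1000 ppm were above all controls, and on day 1 overlap came from 1 or 2 controls at 247 and 281. The early difference was 0.72 ± 0.20 (SE) on the log2 scale (adjusted p = 0.0346) at 500 ppm and 0.82 ± 0.20 (SE) on the log2 scale (adjusted p = 0.008) at 1000 ppm. With the run block the adjusted p-values were 0.038 and 0.11, and the call at 1000 ppm was kept in all 12 fits that left out 1 array, while 8 of 12 lost that at 500 ppm. Kif11 signals on day 7 were 136, 209 and 166 in the controls, 196, 134 and 198 at 50 ppm, 141, 236 and 221 at 500 ppm and 221, 162 and 206 at 1000 ppm. Kif11 signals on day 14 were 113, 195 and 164 in the controls, 116, 100.1 and 132 at 50 ppm, 158, 133 and 134 at 500 ppm and 236, 113 and 211 at 1000 ppm. No day 7 or day 14 group stood apart from its controls.

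Of the cytokinesis genes 4 were tested at 1000 ppm over days 1 and 3 and 0 were called by limma, all 4 above 0. Ect2, which switches on RhoA at the cleavage furrow, is described in full because it was called over time (probeset 1383747_at). Ect2 signals on day 1 were 129, 467 and 774 in the controls, 335, 643 and 838 at 50 ppm, 552, 536 and 914 at 500 ppm and 478, 1511 and 646 at 1000 ppm. Ect2 signals on day 3 were 328, 475 and 147 in the controls, 379, 505 and 414 at 50 ppm, 773, 783 and 805 at 500 ppm and 685, 845 and 495 at 1000 ppm. Day 3 livers at both higher doses were above all controls, and on day 1 the controls ran from 129 to 774 and overlapped with every dose. The early difference at 1000 ppm was 1.16 ± 0.38 (SE, adjusted p = 0.0591, 0.23 with the run block). Ect2 signals on day 7 were 429, 293 and 254 in the controls, 274, 103 and 126 at 50 ppm, 62.97, 163 and 179 at 500 ppm and 214, 241 and 173 at 1000 ppm. Ect2 signals on day 14 were 63.7, 309 and 85.5 in the controls, 37.4 and 38.6 (2 of 3 listed) at 50 ppm, 89.00, 76.8 and 63.6 at 500 ppm and 108, 58.4 and 107 at 1000 ppm. On day 7 every liver at 500 and 1000 ppm was below every control, and on day 14 both listed at 50 ppm were. Racgap1, the partner of Ect2 in the centralspindlin complex, differed by 0.73 ± 0.23 at 1000 ppm (adjusted p = 0.0621) and was picked after its value was seen, and could not be estimated with the run block. Kif23 was not tested.

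Both markers of dividing cells were called at 1000 ppm over days 1 and 3. Mki67 encodes Ki-67, a protein that coats mitotic chromosomes and is stained to count dividing nuclei (probeset 1374775_at). Mki67 signals on day 1 were 140.1, 295 and 429 in the controls, 311, 510.1 and 681 at 50 ppm, 481, 359 and 719.9 at 500 ppm and 365, 1053 and 657 at 1000 ppm. Mki67 signals on day 3 were 256, 339.9 and 186 in the controls, 259, 396 and 262 at 50 ppm, 611, 577 and 444 at 500 ppm and 507, 514 and 327 at 1000 ppm. At 500 ppm on day 3 all livers were above all controls, at 1000 ppm 2 of 3 were, and on day 1 the groups overlapped. The early difference was 1.01 ± 0.29 (SE) on the log2 scale (adjusted p = 0.0431) at 500 ppm and 1.04 ± 0.29 (SE) on the log2 scale (adjusted p = 0.0247) at 1000 ppm, with adjusted p-values of 0.0991 and 0.427 under the run block. The call at 500 ppm was lost in 9 of 12 fits that left out 1 array, with an adjusted p of up to 0.122. Mki67 signals on day 7 were 291, 229 and 196 in the controls, 211 and 118 (2 of 3 listed) at 50 ppm, 103 (1 of 3 listed) at 500 ppm and 247, 219 and 142 at 1000 ppm. Mki67 signals on day 14 were 245 and 122 (2 of 3 listed) in the controls, 81.3 (1 of 3 listed) at 50 ppm, 79.04 (1 of 3 listed) at 500 ppm and 0 of 3 listed at 1000 ppm. On day 14 the RNA was listed in 2 treated livers of 9, both below the listed controls.

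Top2a encodes topoisomerase II alpha, which untangles the chromosomes before they separate (probeset 1388650_at). Top2a signals on day 1 were 266, 386 and 449 in the controls, 423, 779 and 628 at 50 ppm, 640.2, 524 and 727 at 500 ppm and 505, 1339 and 599 at 1000 ppm. Top2a signals on day 3 were 361, 485 and 129 in the controls, 373, 576 and 367 at 50 ppm, 731, 598 and 489 at 500 ppm and 637, 731 and 356 at 1000 ppm. On day 1 all 6 livers at 500 and 1000 ppm were above all controls, on day 3 this held at 500 ppm, and at 1000 ppm 1 of 3 lay among the controls. The early difference at 1000 ppm was 1.00 ± 0.30 (SE) on the log2 scale (adjusted p = 0.0331), 0.383 with the run block. Ccna2, Mki67 and Top2a lost the early call at 1000 ppm in the same 5 fits of 12: without control replicate 1 of day 1, control replicate 3 of day 3, 1000 ppm replicate 2 of day 1, and 1000 ppm replicate 1 or 2 of day 3. Without that day 1 control the differences were 0.91 (adjusted p = 0.12) for Ccna2, 0.81 (adjusted p = 0.0867) for Mki67 and 0.89 (adjusted p = 0.0888) for Top2a. Top2a signals on day 7 were 269, 365 and 188 in the controls, 275, 213 and 145 at 50 ppm, 172 and 239 (2 of 3 listed) at 500 ppm and 271, 315 and 146 at 1000 ppm. Top2a signals on day 14 were 138, 338 and 148 in the controls, 123 and 131 (2 of 3 listed) at 50 ppm, 112, 47.1 and 91.5 at 500 ppm and 144, 163 and 191 at 1000 ppm. On day 14 the 3 livers at 500 ppm and the 2 listed at 50 ppm were below all 3 controls, and the other late groups overlapped with theirs.

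**Figure D2:**
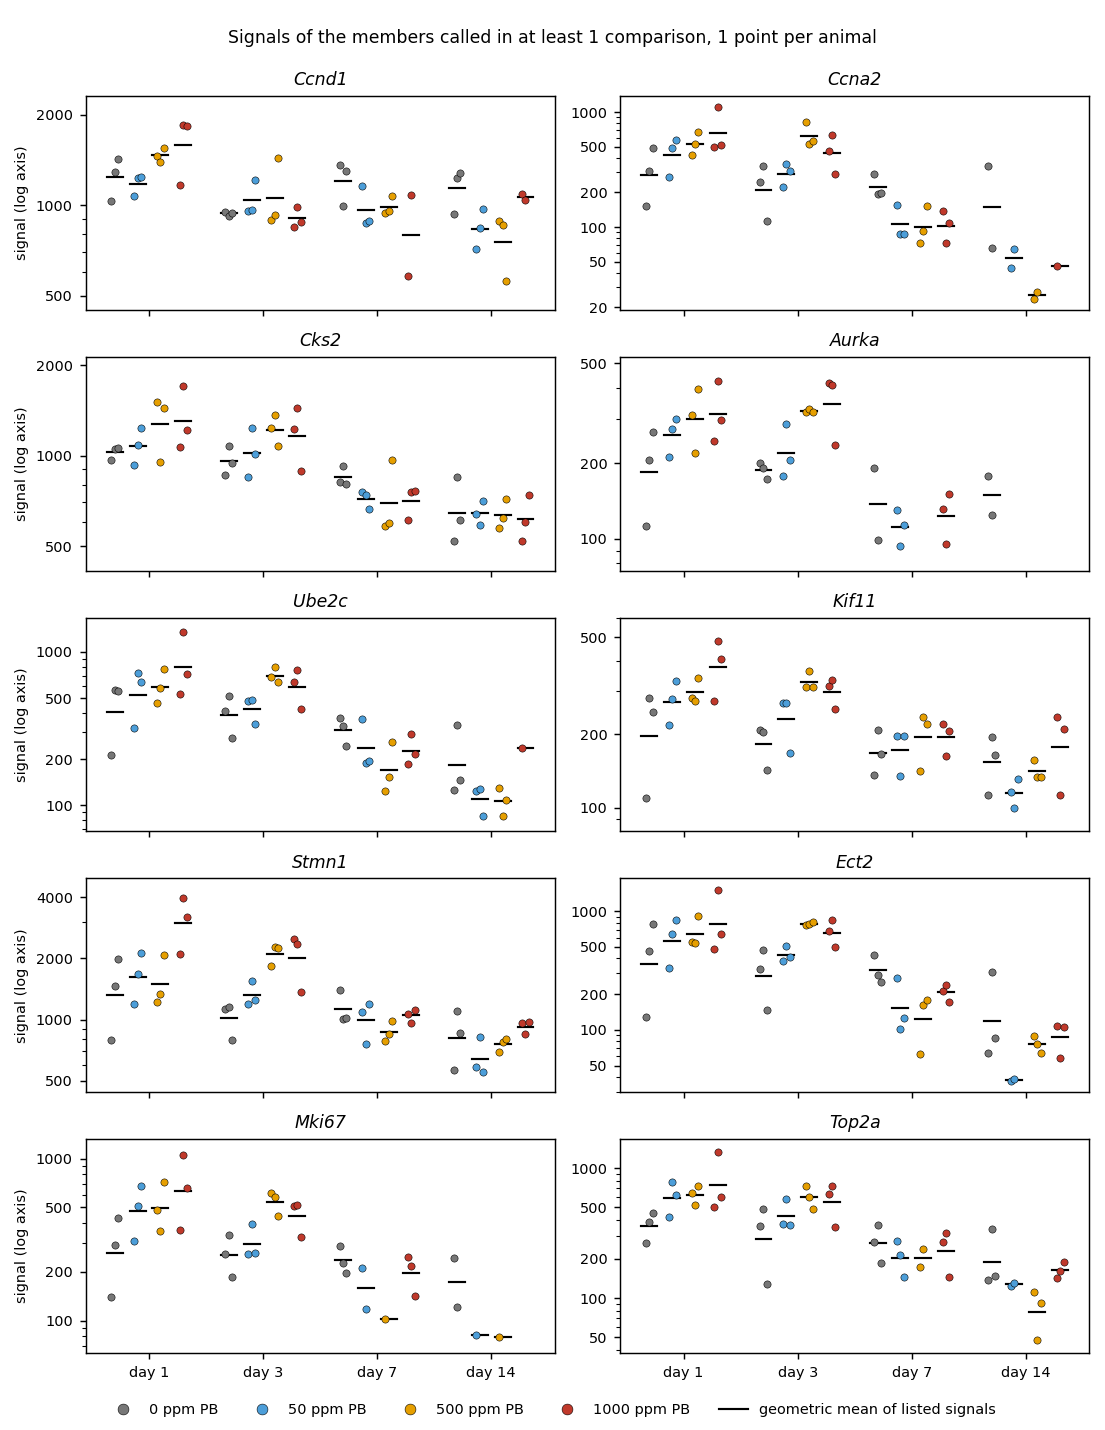
Signal on a log axis (y, arbitrary units after scaling each array to a mean of 500) of the 10 genes called in at least 1 comparison, by day and dose of PB (x), 1 point per animal with a listed signal and bars for group means. Stmn1 on day 1 runs from 789.98 to 1993 in the controls and from 2089 to 3949 at 1000 ppm, and by day 14 all its groups overlap.

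Later in dosing the treated livers no longer stood above their controls. On day 7, 11 of 13 genes tested at 500 ppm were below the controls (median -0.38) and 17 of 19 at 1000 ppm (median -0.26), with 0 called by limma at either dose, where 3.5% and 1.86% of all probesets were called. Unadjusted p-values under 0.05 numbered 4 and 2. Every treated value was below every control for 5 of 11 genes at 500 ppm, against 11.4% of probesets, and for 5 of 15 at 1000 ppm, against 9.73%. Dividing each array by its median listed signal moved the median of all probesets at 500 ppm on day 7 to -0.22 and that of the 13 genes to -0.60, and called 4 of them lower, against 17.2% of all probesets called lower under that scaling. At 50 ppm on day 7, 15 of 17 genes were below the controls (median -0.38) and 0 were called by limma, with 3 unadjusted p-values under 0.05 and 3.66% of probesets called. On day 14 the medians were -0.45 at 50 ppm over 11 genes, where 0 were called by limma, 3 had an unadjusted p under 0.05 and 0.112% of probesets were called, -0.46 at 500 ppm over 10 and -0.10 at 1000 ppm over 9, with Ccna2 at 500 ppm the 1 call. At 1000 ppm on day 14, where 3.45% of probesets were called, 0 of 9 genes had an unadjusted p under 0.05.

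The change of the response with time was tested directly, as the difference from controls over days 1 and 3 minus that over days 7 and 14. At 500 ppm all 10 genes tested were above 0 (median 1.03) and 4 were called, against 0.643% of all probesets: Ccna2 at 3.09 ± 0.51 (SE, adjusted p = 0.00183), Ect2 at 2.17 ± 0.54 (0.0338), Top2a at 1.77 ± 0.43 (0.0315) and Ube2c at 1.53 ± 0.39 (0.0416). Other probesets of 2 genes were called in the same comparison, picked after their values were seen: Nusap1 at 2.10 ± 0.36 (SE, adjusted p = 0.00334) and Ccnd1 at 1.23 ± 0.28 (SE, adjusted p = 0.0217). A further Ccnd1 probeset was not called there, 0.42 ± 0.19 (SE, adjusted p = 0.245), and neither was the one read. At this dose 6 of 6 early livers were above the mean of their controls for each of the 4 genes, and on days 7 and 14 this held for 0 of 6 in Ube2c and Ect2 and 0 of the 5 listed in Ccna2 and Top2a. With the run as a block 0 of 10 were called, with adjusted p-values of 0.107, 0.22, 0.264 and 0.273. Leaving out control replicate 2 or 500 ppm replicate 2 of day 14 gave 0 calls, where Ccna2 could not be tested, as did the placing of the 7 arrays by title, and leaving those out gave 1. Ccna2 was called in all 20 fits without 1 array in which it could be tested (2.86 to 3.28), while Ect2 lost the call in 9 of 24 (1.80 to 2.44), Top2a in 8 of 22 (1.49 to 1.97) and Ube2c in 14 of 24 (1.30 to 1.68). At 1000 ppm 0 of 9 genes were called by limma, against 0.0552% of all probesets, while all 9 were above 0, all 9 had an unadjusted p under 0.05 and the median was again 1.03. The doses were not compared for this change. Setting low signals to 90 called 10 of 35 genes at 500 ppm and 2, Ccna2 and Hmmr, at 1000 ppm, against 0.719% and 0.166% of all probesets.

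Between day 1 and day 14 the genes fell over the 4 doses together, 12 animals against 12. Of 7 genes listed often enough to be tested 6 fell, against 3.23% of all probesets. Ect2 fell by 2.93 ± 0.28 (SE, adjusted p = 2.66e-09), Top2a by 2.07 ± 0.22 (2.95e-08), Stmn1 by 1.18 ± 0.14 (2.76e-07), Kif11 by 0.94 ± 0.14 (2.97e-05), Cks2 by 0.88 ± 0.10 (1.82e-07) and Ccnd1 by 0.54 ± 0.11 (0.00118) on the log2 scale. Each kept its call with the run block and in every fit that left out 1 array in which it was tested. In 12 of 12 livers the day 14 signals of Cks2, Kif11 and Stmn1 were below the day 1 mean of the same dose, as were 11 of 11 listed for Ect2 and Top2a and 10 of 11 for Ccnd1. Cks1b, the close relative of Cks2, differed by -0.01 ± 0.09 (SE, adjusted p = 0.976). In the control livers alone 17 of 18 genes were below 0 on day 14 against day 1 (median -0.91), 0 were called by limma against 0.149% of all probesets, 9 had an unadjusted p under 0.05, and 2 were called without control replicate 1 of day 1. The direction was thus the same in animals that had no PB, without a call. Markers of other cells moved over the same days: over the 12 animals the 6 of 8 endothelial markers read summed to 4022 to 7721 on day 1 (median 6569) and 7221 to 10639 on day 14 (median 9339), and the 2 of 6 neutrophil markers read to 204 to 605 (median 370.2) and 0 to 290.3 (median 199). Their part in the fall was not tested.

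Other gene groups were set beside these over days 1 and 3 at 1000 ppm. Of 20 genes of DNA replication and S phase 10 were tested and 6 rose (median 0.61, 3 called with the run block). Pcna, the sliding clamp of DNA polymerase, rose by 0.62 ± 0.08 (SE, adjusted p = 3.99e-07) on the log2 scale, Mcm7, a subunit of the replicative helicase, by 0.63 ± 0.09 (SE, adjusted p = 1.35e-05), and Prim1, a subunit of primase, by 0.69 ± 0.11 (SE, adjusted p = 5.66e-05). With the run block Pcna, Mcm7 and Rfc4 were called (adjusted p = 0.0157, 0.0353 and 0.0427), and Prim1 was not (0.0624). Mcm7 was called also in the early minus late comparison at 1000 ppm, 0.83 ± 0.13 (SE, adjusted p = 0.001), but not with the run block (adjusted p = 0.673). Of 20 other kinetochore and spindle genes 8 were tested and 2 rose (median 0.68, with Zwint called under the run block), Zwint by 0.87 ± 0.09 (SE, adjusted p = 2.08e-08) and Spc25 by 1.45 ± 0.27 (SE, adjusted p = 0.000778), both parts of the outer kinetochore. Of 17 genes induced through CAR and PXR, the receptors of PB and other drugs, 13 were tested and 12 rose (median 1.45, 10 called with the run block), among them Ephx1, microsomal epoxide hydrolase, by 1.40 ± 0.08 (SE, adjusted p = 4.77e-16). That list holds genes already known to respond in these livers and is no independent evidence.

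Markers of other liver cells were read for the same comparison, and 0 were called by limma in any of the 8 marker groups. Of all probesets tested there, 6.74% were called in either direction. The medians were 0.04 for 9 hepatocyte markers, -0.17 for 9 Kupffer cell and macrophage markers, 0.11 for 6 of sinusoidal endothelium, -0.11 for 8 of stellate cells, 0.22 for 2 of bile duct, -0.01 for 3 erythroid, 0.03 for 1 neutrophil and -0.10 for 2 lymphocyte markers. Of 13 lymphocyte markers 5 were read, with a summed signal of 344 to 1141 in the day 1 controls and 488 to 534 at 1000 ppm. The 5 were Ptprc, listed on 48 arrays, Klrb1a on 42, Nkg7 on 19, and Cd3e and Cd4 on 10 each. The T cell marker Cd3d and the B cell marker Cd79b were listed on 0 arrays and Ms4a1 on 4. The 9 of 11 Kupffer cell and macrophage markers summed to 21190.2 to 29012 in the day 1 controls and 20871 to 25494 at 1000 ppm, and the ranges overlapped, but on day 3 they ran from 20383 to 23864 and from 18812 to 19937 and did not, and all 9 differences over days 1 and 3 were below 0. The 6 of 8 endothelial markers summed to 4022 to 7277 and to 7303 to 7721, which did not overlap, while on day 3 the ranges 8473 to 10184 and 8739 to 9529.8 did. The 2 of 6 bile duct markers read summed to 629.9 to 851 in the day 3 controls and 915 to 1002 at 1000 ppm, with no overlap. These 2 were Epcam, listed on 48 arrays, and Krt19 on 44, while Cftr was listed on 7 and Krt7 and Spp1 on 0. Control replicate 1 of day 1, lowest in the mitosis genes, had the highest Kupffer cell sum, the highest lymphocyte sum, the highest erythroid sum and the highest endothelial sum of its group (7277 against 4022 and 5236), and the lowest hepatocyte sum (301701) and the lowest stellate cell sum (9818). The part of these cells in the results was not tested.

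Within a run, 1 treated and 1 control liver of the same day could be compared in 4 cases, with no test. On day 1 in run 6 the median over 17 genes was 0.67 at 50 ppm with 15 above 0, and 1.31 at 500 ppm with 16 above 0, both against the control animal that was lowest of its group. On day 3 in run 3 the 1000 ppm liver was above the control in 16 of 18 genes (median 0.77). That control was the lowest of its group in 13 of 17 genes, and that 1000 ppm liver the lowest of its own in 22 of 27. On day 7 in run 3 the 50 ppm liver was above the control in 5 of 22 (median -0.13). The part of the run in the results was not tested beyond the block.

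The 2-way analysis of variance named in the methods, on dose and day with a fold filter, was run as well. Of the 35 genes 21 passed the filter of a 1.5-fold change and 11 had all values needed, and 2 showed a dose effect, Stmn1 (adjusted p = 0.0126) and Kif11 (adjusted p = 0.0265), and none did with the 7 arrays placed by title. Over the array 732 of 3417 probesets tested did, so the share among these genes was no higher than over the array. The dose effect was taken over all days together, so an early rise and a later fall can cancel in it. Ccna2, Ect2, Top2a and Ube2c, called above for early minus late, had no dose effect in the analysis of variance (adjusted p = 0.635, 0.318, 0.454 and 0.305). Their lack of a call there therefore does not speak against an early response. In the smaller table of 776 selected probesets, 4 belong to these genes: 2 of Ccnd1, 1 of Kif11 and 1 of Stmn1.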

How the data were processed

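Total RNA from the left lateral lobe of 48 rats was hybridized to Affymetrix RG-230 version 2 arrays, 1 animal each. Per the study's methods, the authors combined the probe intensities into 1 intensity per probeset (signal) with Microarray Suite and brought every array to a mean of 500, and the deposited intensity values are used here on a linear scale. A second deposited table holds ratio values for 776 probesets, each signal divided by its median over the arrays, and was used to count member probesets. The step that selected them is not given in the sources used here. The meaning of an absent signal is not given either.

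Arrays were grouped by the animal number in the description, because 7 titles give another group. Of 31099 probesets, 57 controls were left out and 18073 reached a signal of 90 on 3 or more arrays. A gene was read from the probeset annotated to it alone with the highest mean signal. Log2 signals were fitted in 16 groups with limma 3.58.1 in R 4.3.3 (checked against simulated data), with absent signals missing, at least 2 listed signals required per group, and Benjamini-Hochberg adjustment over all probesets of a comparison at 0.05. In simulated data for 1000 ppm over days 1 and 3, the fit recovered 99 of 100 2-fold changes and 83 of 100 of 1.5-fold. Under the run block it recovered 89 and 60. The changes were put into probesets listed on every array, and 5 of the genes here had such a probeset. For genes with absent signals or a wider spread these rates do not give the chance of a call. In the same comparison Cdk1 differed by 0.85 ± 0.39 (SE, adjusted p = 0.209 by limma) and was not called. A gene without a call is therefore not shown to be unchanged. The arrays gave 13479 to 16352 listed probesets and their number limits the precision. On the probesets read, 7 of the 35 genes were untested in every comparison: Ccne1, Plk1, Ttk, Mad2l1, Cdc20, Kif2c and Kif23. Of these, Mad2l1, Cdc20 and Kif2c had another probeset that was tested, and the other 4 had none.

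Values in every array are given for the members called in at least 1 comparison, at most 12, and for lists at most 4 called genes with the smallest adjusted p. Alternatives were the run as a block, 2 other scalings, placing by title, leaving out the 7 arrays, no filter, a floor of 90, another probeset, the replicate number as a block, 3 listed signals per group (added after the data were seen), and leaving out each array. The members and lists were chosen with earlier results of these data known. Promoters came from RefSeq (GRCr8), and 8 members had no entry there: Ccnd1, Ccne2, Ccna2, Aurkb, Pbk, Ube2c, Tpx2 and Racgap1.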

Additional observations from a re-analysis of the deposited data

Results flagged for a closer look

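At 500 ppm PB the response on days 1 and 3 differed from that on days 7 and 14 by the interaction test in limma for 4 genes, on the log2 scale: Ccna2 by 3.09, Ect2 by 2.17, Top2a by 1.77 and Ube2c by 1.53. None of the 4 was called with the run as a block.

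For several genes, in part the same, a pair of days stood out because every treated liver was above every control on the early day and below every control on the later day. These differences between days were not tested, and 3 against 3 animals lie behind each. At 500 ppm the response of Ect2 on day 3 exceeded that on day 7 by 2.84, that of Ccna2 by 2.70, that of Ccnb2 by 1.71 and that of Stmn1 by 1.43. Top2a at 500 ppm differed between day 1 and day 14 by 2.08 and between day 3 and day 14 by 2.36. At 1000 ppm the response on day 1 exceeded that on day 7 by 2.34 for Ccna2 and by 0.61 for Cks2. Also at 1000 ppm, day 3 exceeded day 7 by 1.83 for Ect2, 1.67 for Cdkn3, which encodes a phosphatase that acts on CDKs, and 1.42 for Ccnb2. Each group held 3 animals, so no outlier test was made within a group, and the effect of single livers was read from the fits that left out 1 array.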

How the results depend on the processing

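The counts are of cyclin and mitosis genes called. On days 1 and 3 together at 1000 ppm 6 were called, 1 with the run as a block, 10 with quantile normalization, 19 with a floor of 90, 10 with the replicate number as a block and 2 to 12 when 1 array was left out. The floor called 3.23% of all probesets higher there. Shares of all probesets called under quantile normalization and the replicate block are not given here, so those counts cannot be set against one. At 500 ppm 4 were called, 1 with the run block, 0 with the arrays placed by title, 0 without the 7 arrays, 10 with the floor and 0 to 6 without 1 array. For early minus late at 500 ppm 4 were called, 0 with the run block, 8 with quantile and 8 with array-median scaling, 0 by title, 1 without the 7 arrays, 10 with the floor, 2 with 3 listed signals per group and 0 to 5 without 1 array. Under array-median scaling 10.8% of all probesets were called higher there, against 0.643% in the main fit. The median of all probesets tested was 0.19 under that scaling and 0.18 with quantile normalization. At 1000 ppm the early minus late count of 0 was 1 with array-median scaling, which called 0.465% of all probesets higher, and 2 with the floor. On day 1 at 1000 ppm 1 was called, 0 with the run block, 3 with quantile, 2 with array-median scaling, 0 by title, 6 with the floor, 2 with the probeset listed most often and 0 to 4 without 1 array. There array-median scaling called 3.1% of all probesets higher and the floor 1.69%. On day 3 at 1000 ppm 1 was called, 0 by title, 3 with the floor, 2 with the replicate block and 0 to 1 without 1 array. The floor called 1.81% of all probesets higher there. On day 3 at 500 ppm 1 was called, 0 with the run block, by title, without the 7 arrays or without any 1 array. With the floor 2 were called there, against 0.913% of all probesets higher. On day 14 at 500 ppm 1 was called, 0 with the run block, by title, with the floor or with 3 listed signals, and 0 to 1 without 1 array. At 500 ppm 0 were called on days 1 and 7, 3 on day 1 and 3 on day 7 with the floor, and 4 on day 7 with quantile and 4 with array-median scaling. The floor called 0.603% of all probesets higher on day 1 and 1.88% lower on day 7. On day 7 array-median scaling called 17.2% of all probesets lower. On day 14 against day 1 over the doses 6 were called, 27 with the floor, 3 with 3 listed signals and 4 to 6 without 1 array, and in controls alone 0 to 2. Over the doses the floor called 2.74% of all probesets lower. The analysis of variance called 2, and 0 by title. Among the early calls with the floor, Ccne1, Ccne2, Mad2l1 and Kif2c had no early control above 90 and could not fall. The cause of these changes was not tested, save that the floor raises the number of genes tested to 35 and the demand for 3 listed signals lowers it.

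No result reversed its direction under any alternative. Of 232 single-gene calls rerun under settings other than leaving out an array 41 were lost, of which 15 of 24 with the run block and 13 of 24 by title, and of 368 without 1 array 95 were lost. Replicate numbers did not pair the animals: deviations from group means correlated by 0.0232 on average over 358 pairs with the same number and by -0.0115 over 722 other pairs, and the replicate block lost none of 24 single-gene calls. Array-median scaling moved the median of all probesets by over 0.1 on day 7 at 500 ppm (-0.22), day 14 at 1000 ppm (-0.21), days 1 (0.11) and 3 (-0.15) at 50 ppm, for early minus late at 500 (0.19) and 1000 ppm (0.11), and in controls over time (0.15). Without the 7 arrays 50 ppm on day 7 gave no value. Absent signals limit the late groups most, where 9 to 11 genes could be tested on day 14.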

Other observations

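Regulators of the cell cycle that are not among the 39 genes were read over days 1 and 3 at 1000 ppm PB against controls. In that comparison 3.83% of all probesets were called higher and 2.91% lower. Of 14 genes of the E2F, Rb, Myb and FoxM1 group 8 were tested, and the median was 0.19 on the log2 scale. Rbl1, which encodes the Rb relative p107, rose by 0.70 ± 0.20 (SE, adjusted p = 0.0271), while Rb1, which encodes the retinoblastoma protein, a brake on entry into S phase, was lower at -0.89 ± 0.18 (SE, adjusted p = 0.00149). Of 15 CDK inhibitors and brakes 8 were tested and 1 rose, Cdkn2d, an inhibitor of CDK4 and CDK6, by 0.51 ± 0.16 (SE, adjusted p = 0.048), with a median of 0.08. Of 9 cohesin and condensin genes 7 were tested (median 0.27) and the condensin subunit Ncapd2 rose by 1.10 ± 0.22 (SE, adjusted p = 0.00104). Of 16 APC/C and SCF subunits 13 were tested (median 0.05) and Skp1 rose by 0.23 ± 0.06 (SE, adjusted p = 0.0102). Of 16 other cyclins and CDKs 12 were tested and 0 were called by limma, with 0 unadjusted p-values under 0.05 (median 0.07). With the run as a block 0 genes of these 5 groups were called, and the adjusted p-values of the 5 named genes ran from 0.0523 to 0.695.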
